A study of Drosophila melanogaster with 3 samples.

Results

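The genes described here are the expressed noncoding genes of the Drosophila lymph gland that carry a CR symbol, the placeholder symbol that FlyBase gives to annotated genes without a coding product. A gene was included when its symbol consisted of CR and a number and its level reached at least 3 CPM (counts per 1000000 counts of the library) in at least 1 of 3 bulk RNA libraries. Of 2456 CR genes among the 17490 genes in the files, 67 met this rule, 2389 stayed below it, and 1397 of these had 0 counts in every library. The levels themselves chose the members, so every value below is a description and carries no test. A gene that passed through 1 library has to be high there, and the comparison set used below was therefore filtered in the same way.

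The lymph gland is the larval blood-forming organ of Drosophila, and its libraries came from Oregon-R, a wild-type strain, kept in steady state, aged 72, 96 or 120 h after egg laying (AEL), with no transgene or treatment in any group. There was 1 library per age. Each pooled many animals, and the dissection kept the primary lobes only, without the posterior lobes, ring gland and dorsal vessel. Each comparison is therefore between a pair of libraries and has no replicate check, and fewer cells of a type cannot be told apart from less of an RNA per cell.

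Genes of this class work in several ways. Long noncoding RNAs can act as scaffolds or guides for protein complexes, and transcription through their loci can by itself alter a neighbouring gene. Some are the long primary transcripts from which Drosha and Pasha crop microRNA hairpins, others fold into long hairpins that are diced into endogenous small interfering RNAs, and antisense RNAs are read from the opposite strand of another gene. The lymph gland holds prohemocytes, the progenitors, and the plasmatocytes, crystal cells and lamellocytes that arise from them, together with a small signalling niche, the posterior signalling center (PSC).

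From the youngest to the oldest age the libraries held 49511614, 37922500 and 34278733 counts, so that 3 counts corresponded to 0.0606, 0.0791 and 0.0875 CPM. Among all genes with 1 to 20 counts, 69.6% to 72.0% had an even count, and the 95% intervals of folds given below were therefore computed on halved counts (exact Clopper-Pearson, treating both counts as Poisson) and cover counting error only. Levels are TMM-scaled CPM, except that level thresholds and the age of the highest level use unscaled CPM. Before each log2 ratio 1 CPM was added, so that ratios of weakly expressed genes are too small. A gene is called 2-fold or 4-fold higher or lower when such a ratio is at least 1 or at least 2 in size, and folds without this addition are given beside counts. Several marker lists of other tissues had a higher sum in the 72 h library. In order of age, the summed level of 8 muscle genes was 4080, 659 and 571 CPM (7 of 8 were 4-fold lower at 96 h AEL), that of 3 dorsal vessel genes 982, 88.2 and 63.5 CPM, that of 8 neuronal genes 138, 66.4 and 81.7 CPM, that of 8 ring gland genes 855, 307 and 133 CPM, and that of 7 midgut genes 181, 0.107 and 0.120 CPM, with 6 of the 7 midgut genes at 0 counts at 96 and 120 h AEL. Of the midgut sum at 72 h AEL, 176 CPM came from Jon65Aiv alone. Only 2 of the 7 midgut genes reached 3 CPM in any library, and Amy-p had 0 counts in all 3. Members of a list did not all go the same way, since the neuronal genes Cadps (23.0, 30.2 and 38.1 CPM) and fne (16.1, 26.4 and 34.5 CPM) were higher at each later age. The 8 fat body genes summed to 1651, 335 and 486 CPM, but 3 of them were 2-fold higher and 2 lower at 96 than at 72 h AEL, with a median log2 ratio of 0.73, and Fbp2 and Lsp2 had 0 counts in the 72 h library and Fbp1 0 in the 96 h library. The blood cell markers were present in every library, and crystal cell markers (lz, PPO1, PPO2) summed to 674.53, 13350 and 16498 CPM while plasmatocyte markers (Hml, Pxn, NimC1) summed to 10052, 21490 and 19894 CPM.

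The 67 members were a minor and uneven part of the RNA. Their share of the counts was 0.237% in the 72 h library (0.236% to 0.239%, Wilson 95% interval), 0.324% in the 96 h library (0.322% to 0.326%) and 0.378% in the 120 h library (0.376% to 0.380%). A single gene, CR42862, held 63.3%, 78.2% and 80.6% of these counts. Without it the members summed to 837, 713 and 756 CPM. That sum includes CR43283, which alone was at 286, 4.93 and 2.95 CPM, so it does not show the course of the remaining members. The median member stood at 4.03, 5.41 and 6.58 CPM. At the threshold of 3 CPM, 42, 55 and 58 members passed in order of age, and 35 passed in all 3 libraries (52.2% of the members, against 82.6% of the 7927 genes of any kind that reached 3 CPM in at least 1 library). A further 18 passed in 2 libraries and 14 in 1 library, which was the 72 h library for 6, the 96 h library for 2 and the 120 h library for 6. The members just inside the threshold were CR43900, CR42874 and CR44807, with highest unscaled levels of 3.03, 3.12 and 3.19 CPM, and the CR genes just outside it were CR44922, CR45126 and CR45177 at 2.99, 2.98 and 2.89 CPM.

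**Figure D1:**
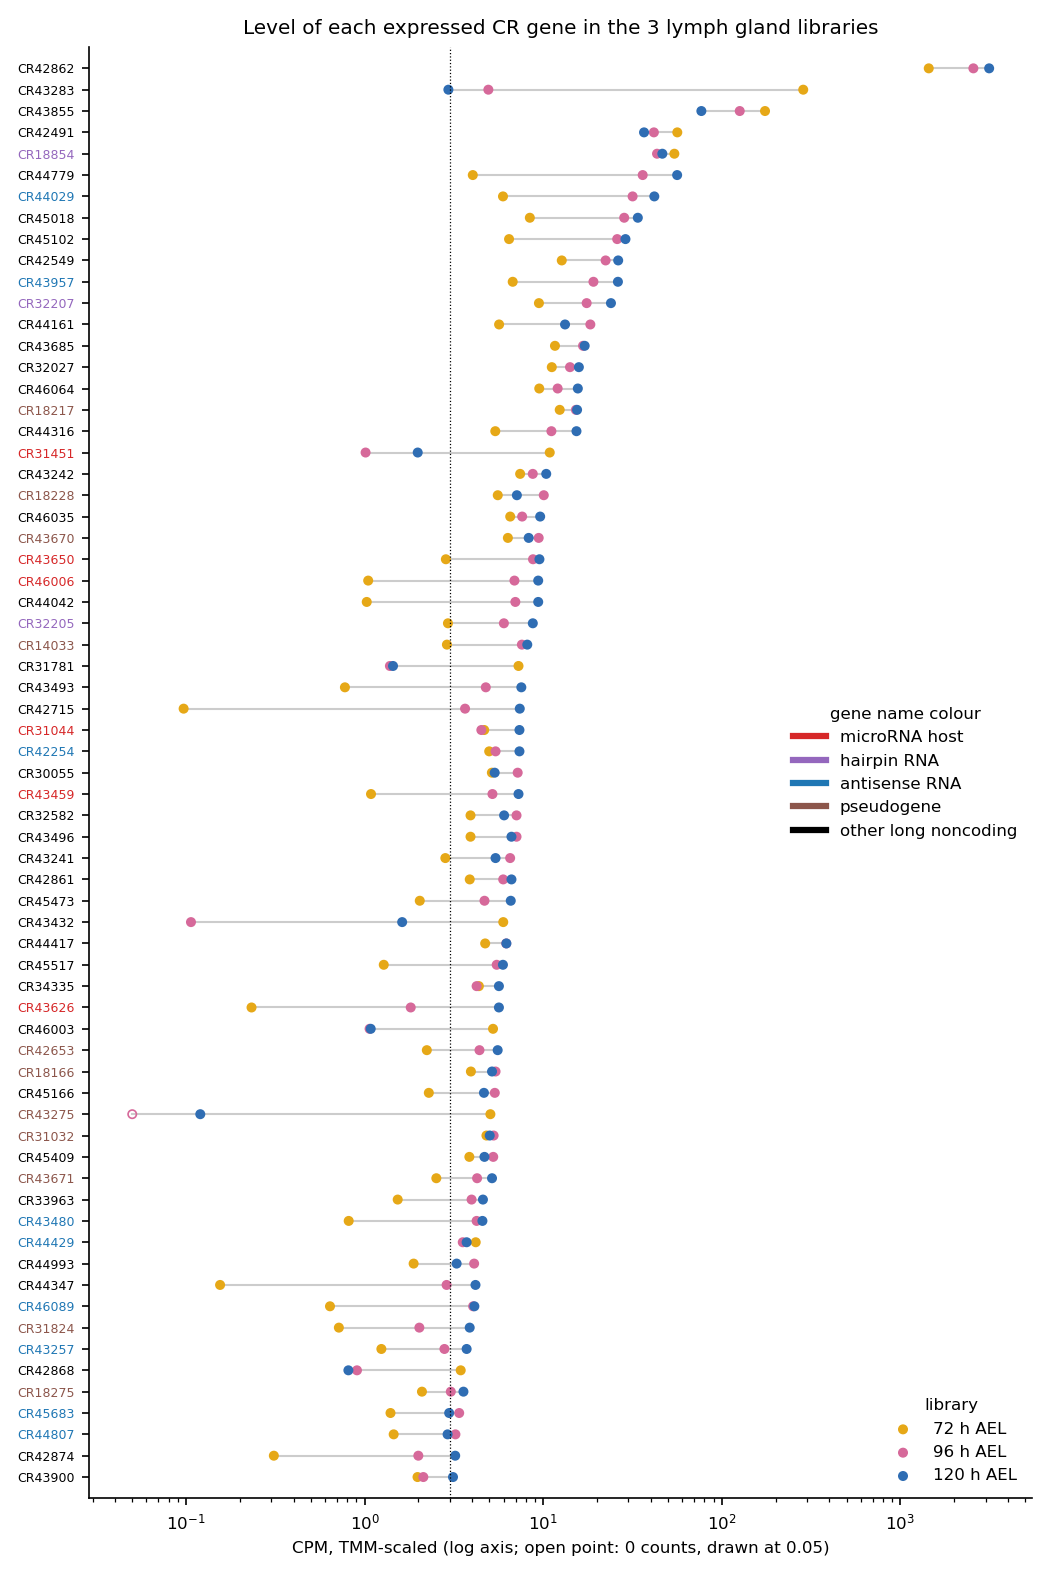
Level of each of the 67 members in the 3 libraries, in TMM-scaled CPM on a log axis, 1 point per library, with the gene names coloured by RNA class and a dotted line at 3 CPM. CR42862 stands apart at the top, and in most rows the 72 h point lies to the left, with a few genes such as CR43283 and CR43432 in the opposite order.

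By the Ensembl annotation of BDGP6.54, 11 members are pseudogenes, 9 are named antisense RNAs, 6 hold an annotated microRNA, 3 are hairpin RNAs, and 38 are other long noncoding RNAs. Relative to coding genes, 31 lie between them, 17 overlap a coding exon on the opposite strand, 8 overlap a coding exon on the same strand, 10 lie within an intron on the opposite strand and 1 within an intron on its own strand. Their exonic length ranged from 262 to 21024 bases with a median of 1396, and 27 consist of 1 exon. The exons of 30 members overlap an exon of another gene, and the use of strand in counting is not given in the sources used here, so reads of those members and of their overlapping genes may not be separable. Chromosome X holds 16 members, 2R 15, 2L 12, 3L 12, 3R 10 and chromosome 4 holds 2.

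The members as a list stood higher after 72 h AEL. Between 72 and 96 h AEL the median log2 ratio of the members was 0.75, against 0.01 over all 7927 genes tested, and 54 of 67 had a ratio above 0 (80.6%, against 50.7% of all genes tested). At 2-fold, 19 members were higher (28.4%, where 5.2% of all genes tested were) and 7 were lower (10.4%, where 16.2% were). At 4-fold, 3 members were higher (CR44779, CR44029 and CR42715, where 1.38% of all genes were called) and 4 were lower (CR43283, CR31451, CR43432 and CR43275, where 9.92% were). Reading whole folds with their intervals, in place of the ratio with 1 CPM added, 6 members lay above 4-fold with the entire interval (where 1.49% of all genes did), and with 0.1 CPM added 13 members were 4-fold higher (where 1.97% of all genes were). The share of members called higher was thus above the background and the share called lower below it, while among all genes more were called lower than higher.

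The step from 96 to 120 h AEL was small. The median log2 ratio of the members was 0.16, against 0 over all genes tested. No member was 4-fold higher or lower (0 of 67 each, where 0.214% and 0.0757% of all genes were), 2 were 2-fold higher (CR43432 and CR43626, where 1.36% of all genes were) and 0 were 2-fold lower (where 1.12% were). Over the whole interval from 72 to 120 h AEL the median was 0.67, against -0.01 over all genes tested. Here 28 members were 2-fold higher (41.8%, where 7.59% of all genes were) and 8 were 2-fold lower (11.9%, where 17.3% were), while 9 were 4-fold higher (where 2.4% of all genes were) and 2, CR43283 and CR43275, 4-fold lower (where 11.2% were). In unscaled CPM, 39 members peaked in the 120 h library (58.2%, against 28.8% of all genes tested), 17 in the 96 h library (25.4%, against 20.9%) and 11 in the 72 h library (16.4%, against 50.3%). In TMM-scaled CPM, which shifts some peaks between ages, the level was higher at each later age, by any amount, in 40 members (59.7%, against 29.3% of all genes tested). It was lower at each later age in 4 (5.97%, against 28.6%).

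**Figure D2:**
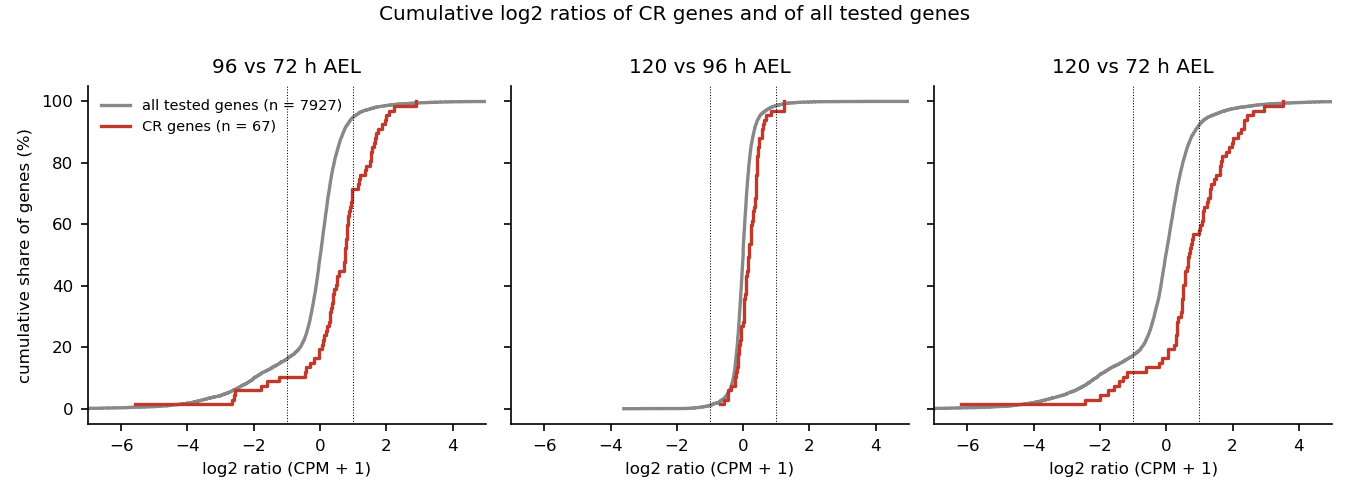
Cumulative share of genes, in percent, by log2 ratio (CPM + 1) for the 67 members and all 7927 genes tested, in the 3 comparisons, with dotted lines at 2-fold. The curve of the members lies to the right of the curve of all genes around 0 in the comparisons with 72 h AEL, with medians of 0.75 and 0.67, and both curves are steep around 0 between 96 and 120 h AEL.

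Most members are weakly expressed, and the comparison was repeated among genes of like level. Among genes whose highest level was 3 to 10 CPM, which held 47 members, 13 members were 2-fold higher in the 96 h than in the 72 h library (27.7%, against 4.32% of all 1389 genes in that range) and 5 were lower (10.6%, against 44.9%). Among genes of 10 to 100 CPM, which held 17 members, 6 were higher (35.3%, against 3.93% of all 4600 genes) and 1 was lower (5.88%, against 12.2%). Above 100 CPM there were 3 members, of which 0 were higher (against 8.82% of all 1938 genes) and 1, CR43283, was lower (33.3%, against 5.01%). In the 35 members that passed 3 CPM in all 3 libraries, 7 were 2-fold higher in the 96 h than in the 72 h library (20% of them, against 4.83% of all 6546 such genes) and 0 were lower (against 3.68%). All 7 members called lower in this comparison thus passed in fewer than 3 libraries. This subset requires 3 CPM at 96 h AEL as well, so it tends to leave out weak members that were lower there. The 0 therefore says little about the members. For comparison, 27 noncoding RNA genes with names of their own, such as roX1 and roX2 of the dosage compensation complex and the snoRNA host genes, were looked up, and 13 reached 3 CPM. Of these, 2 were 2-fold higher in the 96 h than in the 72 h library and 0 lower, where 5.2% and 16.2% of all genes tested were.

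CR42862 had the highest level of all members, per length of exon as well. It lies on 3L at 224106 to 230964, has 3 exons with 5485 bases in all, and shares 246 exonic bases on its own strand with the coding gene CG33229. It had 74316, 96124 and 104503 counts, which correspond to 1442, 2562 and 3141 CPM and to 263, 467 and 573 CPM per kilobase. The level was 1.78-fold higher in the 96 h than in the 72 h library (1.75 to 1.80) and 1.23-fold higher in the 120 h than in the 96 h library (1.21 to 1.24). CG33229 had 27.5, 46.4 and 48.3 CPM, in the same order of ages. CR42862 is on the study's single-cell signature lists of the PSC and of the cells it calls GST-rich. The PSC markers Antp and kn together stood at 94.2, 53.0 and 62.3 CPM. The part of PSC or GST-rich cells in the level of CR42862 was not tested.

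CR43855 came next per length and went the other way. It is spliced from 3 exons of 747 bases within an intron of Sema1a, an axon guidance semaphorin, on the opposite strand (2L, 8590370 to 8594489). Its level was 175, 126 and 76.8 CPM, or 234, 169 and 103 CPM per kilobase, lower at each later age and 2.27-fold lower in the 120 h than in the 72 h library (2.13 to 2.42). Sema1a was at 12.7, 18.3 and 19.3 CPM. The gene is on the signature lists of prohemocytes, PSC and GST-rich cells, and of the prohemocyte markers Tep4 was lower at each later age, at 12293, 10740 and 10196 CPM, while Ance was higher, at 5600, 7041 and 9681 CPM. The part of those cells in the level of CR43855 was not tested.

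CR42491 and CR44316 were next in level per kilobase in the 96 h and 120 h libraries. CR42491 shares 377 of its 747 exonic bases, on the same strand, with RpL22, which encodes a ribosomal protein. Its level was 56.3, 41.7 and 36.7 CPM (75.4, 55.8 and 49.1 CPM per kilobase), while RpL22 was at 1112, 625 and 811 CPM. CR44316, with 262 exonic bases the shortest member, was at 5.39, 11.1 and 15.4 CPM (20.6, 42.4 and 58.6 CPM per kilobase), and was 2.85-fold higher in the 120 h than in the 72 h library (2.31 to 3.53). Both are on the study's lamellocyte signature list together with CR45018, and the lamellocyte marker atilla was at 6.63, 3.73 and 7.75 CPM.

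Of the 6 members that hold a microRNA, 5 were higher at 120 than at 72 h AEL, 4 of them at least 2-fold. In that comparison 83.6% of all members were higher and 41.8% at least 2-fold, against 49.3% and 7.59% of all genes tested. The 6 microRNA hosts were picked by their annotation, and all except CR31451 and CR43650 were singled out after their values were seen. Their median log2 ratio was 1.27 for the first step, 0.49 for the second and 1.72 over both. CR43650 holds mir-8, the fly member of the miR-200 family, in a single exon of 10400 bases on 2R. It was at 2.85, 8.77 and 9.53 CPM and 3.08-fold higher in the 96 h than in the 72 h library (2.32 to 4.11), and it is on the crystal cell signature list of the study, whose markers were higher in the same libraries. The part of those cells in its level was not tested.

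CR46006, which holds mir-276a, was at 1.05, 6.90 and 9.38 CPM, 6.59-fold higher in the 96 h than in the 72 h library (4.33 to 10.4). CR43459, which holds mir-277 and mir-34 and lies 64 bases from Fmr1, the fly homologue of the fragile X gene, was at 1.09, 5.20 and 7.27 CPM, 4.79-fold higher in the 96 h than in the 72 h library (3.12 to 7.57), while Fmr1 was at 154, 221 and 208 CPM. CR43626, which holds mir-282, had 12, 68 and 188 counts, or 0.233, 1.81 and 5.65 CPM. It was the 1 member that was 2-fold higher in both steps, 3.12-fold in the second (2.09 to 4.76). CR31044, which holds mir-279 and mir-996, RNAs known for repressing neuronal fates, was at 4.67, 4.50 and 7.36 CPM, with a fold of 0.964 at 96 against 72 h AEL (0.721 to 1.28) and 1.63-fold higher in the 120 h than in the 96 h library (1.23 to 2.18). These reads come from the host transcripts, and mature microRNAs were not measured.

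CR31451, annotated as lncRNA:mimi and holding mir-9381, was the exception among the hosts. It had 561, 38 and 66 counts, or 10.9, 1.01 and 1.98 CPM, and was 10.7-fold lower in the 96 h library than in the 72 h library (6.75 to 18.1). CG13603, the coding gene 148 bases away, was at 18.5, 25.1 and 33.7 CPM, in the opposite order between those ages.

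**Figure D3:**
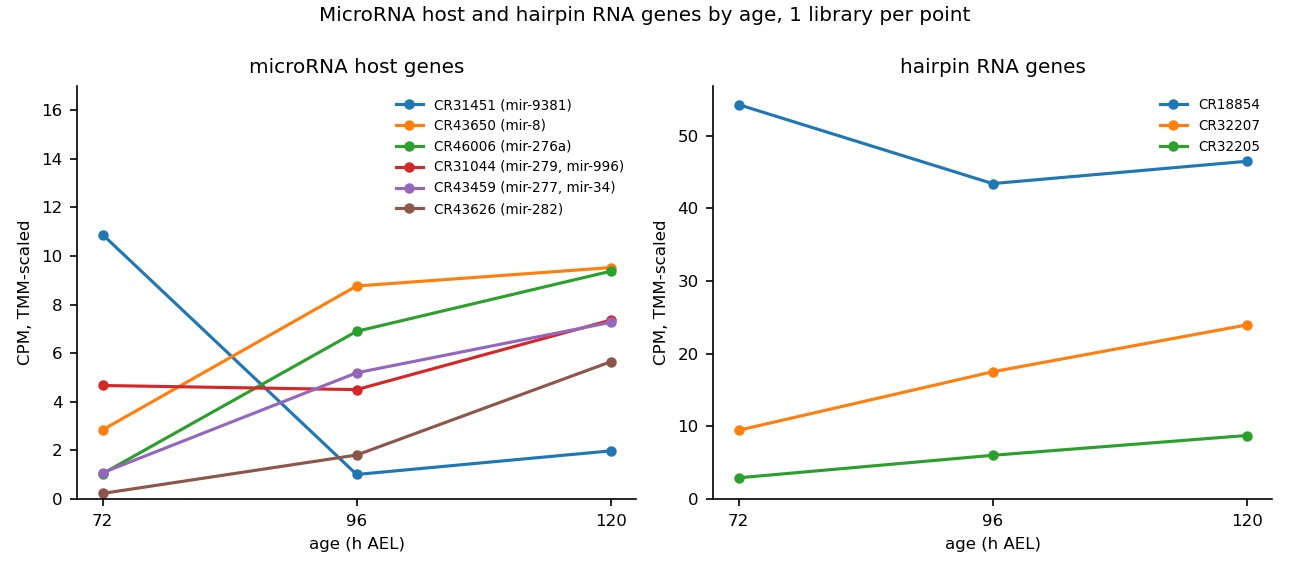
Level (TMM-scaled CPM, linear axes from 0) of the 6 microRNA host genes and the 3 hairpin RNA genes by age in h AEL, with 1 library per point and no error bars. CR31451 goes from 10.9 CPM to 1.01 CPM at 96 h AEL while the other hosts are level or higher, and CR18854 lies above the other hairpin RNAs in CPM at each age.

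The 3 hairpin RNAs differed among themselves. CR18854, which RefSeq lists under the synonym esi-1, was at 54.3, 43.4 and 46.5 CPM, and was 1.25-fold lower in the 96 h than in the 72 h library (1.15 to 1.36). Its exons share 1019 bases with IP3K1, an inositol trisphosphate kinase gene on the opposite strand, which was at 7.95, 19.0 and 27.8 CPM. CR32207, with the synonym esi-4.1, was at 9.47, 17.5 and 24.0 CPM, and CR32205, from the same region of 3L, at 2.93, 6.02 and 8.75 CPM. Both were higher at each age, by 2.53-fold (2.15 to 2.98) and 2.99-fold (2.25 to 4) from 72 to 120 h AEL, and the exons of each overlap another noncoding gene by 318 and 330 bases. Hairpin RNAs are built from repeated sequence, and reads that fit more than 1 place may have been dropped or assigned to either, so their levels are uncertain.

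Of the 9 antisense RNAs, 8 had a ratio above 0 between 72 and 96 h AEL and 4 were 2-fold higher, with a median log2 ratio of 0.87. Of all members 80.6% were above 0 and 28.4% 2-fold higher, with a median of 0.75. Of all genes tested 50.7% were above 0 and 5.2% 2-fold higher, so the antisense RNAs stood near the member list as a whole. CR44029, a single exon of 5379 bases on chromosome 4, shares 705 bases with unc-13, which encodes a synaptic vesicle priming protein. It had 307, 1188 and 1394 counts, or 5.95, 31.7 and 41.9 CPM, 5.32-fold higher in the 96 h than in the 72 h library (4.45 to 6.39), and unc-13 was at 46.4, 76.4 and 99.3 CPM. CR43957, also on chromosome 4, shares 53 bases with ci, the transcription factor of the Hedgehog pathway, and was at 6.75, 19.1 and 26.2 CPM beside 33.8, 93.4 and 116 CPM for ci. The folds of these antisense RNAs at 96 against 72 h AEL were larger than that of the sense gene for unc-13 and near it for ci.

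Among the other long noncoding RNAs, CR44779 had the largest log2 ratio of any member in both comparisons with 72 h AEL. Its 3 exons span X, 1047242 to 1088866, and overlap CG3655 by 94 bases on the opposite strand. It had 208, 1353 and 1871 counts, or 4.03, 36.1 and 56.2 CPM, 8.94-fold higher in the 96 h than in the 72 h library (7.26 to 11.1). CG3655 went the other way, at 9.99, 4.34 and 1.56 CPM.

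CR45018, CR45102 and CR44161 were also among the 5 largest log2 ratios from 72 to 96 h AEL of the members with at least 10 CPM. CR45018 was at 8.42, 28.4 and 33.9 CPM, 3.38-fold higher (2.88 to 3.97), and is on the crystal cell as well as the lamellocyte signature list. It lies on the strand of IP3K2 and shares 1433 of its 4000 bases with that gene, whose level was not analysed here. CR45102, a single exon 185 bases from Mnt, which encodes the partner of Max that represses Myc targets, was at 6.44, 25.96 and 28.9 CPM, 4.03-fold higher (3.37 to 4.84), and is on the adipohemocyte signature list, and Mnt was at 22.2, 64.2 and 68.9 CPM. CR44161, within an intron of bin3, was at 5.66, 18.4 and 13.3 CPM, highest at 96 h AEL, with a fold of 0.722 at 120 against 96 h AEL (0.607 to 0.857), whereas bin3 was at 327, 399 and 396 CPM.

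CR42715 went from near absence to a clear level. It had 5, 137 and 246 counts, or 0.0970, 3.65 and 7.39 CPM, 37.7-fold higher in the 96 h than in the 72 h library with a wide interval (11.3 to 232). It lies on 2R, 426 bases from Mtkl, a relative of the antimicrobial peptide gene Metchnikowin, which was at 0.0582, 10.8 and 23.4 CPM. CR42715 is on the study's plasmatocyte and adipohemocyte signature lists, and the plasmatocyte markers summed to 10052, 21490 and 19894 CPM. The part of those cells in its level was not tested. CR34335, on the PSC, adipohemocyte and dorsal vessel lists, differed little at 4.36, 4.24 and 5.65 CPM, and CR43685, at 11.6, 16.7 and 17.1 CPM, and the pseudogene CR18217, at 12.4, 15.2 and 15.5 CPM, were nearly level after 96 h AEL.

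The 7 members that were 2-fold lower in the 96 h than in the 72 h library all lie between coding genes, and none of the members at other positions was lower by that margin. That position holds 31 members, with a median log2 ratio of 0.72. Of these 31, 10 were 2-fold higher and 7 lower, where 5.2% and 16.2% of all genes tested were. CR43283, annotated as lncRNA:cherub and known from neural stem cells, in which it is segregated asymmetrically at division, had the second highest count of the members in the youngest library. Its counts were 14731, 185 and 98 (286, 4.93 and 2.95 CPM), and the 96 h level was 57.9-fold lower than the 72 h level (47.2 to 71.9). CG5214, 769 bases away, was at 307, 248 and 231 CPM. Of the 8 neuronal marker genes, 5 were 4-fold lower in the 96 h than in the 72 h library, with brp at 0 counts at 96 h AEL and Cadps and fne higher, and their part in the level of CR43283 was not tested.

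CR31781, on the dorsal vessel signature list of the study, was counted 375, 52 and 48 times (7.27, 1.39 and 1.44 CPM), and its 96 h level was 5.25-fold below its 72 h level (3.47 to 8.24). All 3 dorsal vessel markers were 2-fold lower in the same comparison, and their part in it was not tested. The remaining genes of this group were singled out after their values were seen. CR43432, annotated as lncRNA:marge, was lower and then higher, at 308, 4 and 54 counts, 56.0-fold below the 72 h level at 96 h AEL (15.3 to 467) and 15.2-fold higher again at 120 h AEL (3.83 to 132). The pseudogene CR43275 was counted 261, 0 and 4 times. Its 96 h level was 63.3-fold lower than its 72 h level when the 96 h library is set to the floor of 3 counts. The interval on halved counts starts at 25.4-fold and has no upper end. CR46003, the longest member, was at 5.24, 1.07 and 1.08 CPM and CR42868 at 3.45, 0.906 and 0.811 CPM. For all 7, the level at 120 h AEL remained below that at 72 h AEL.

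**Figure D4:**
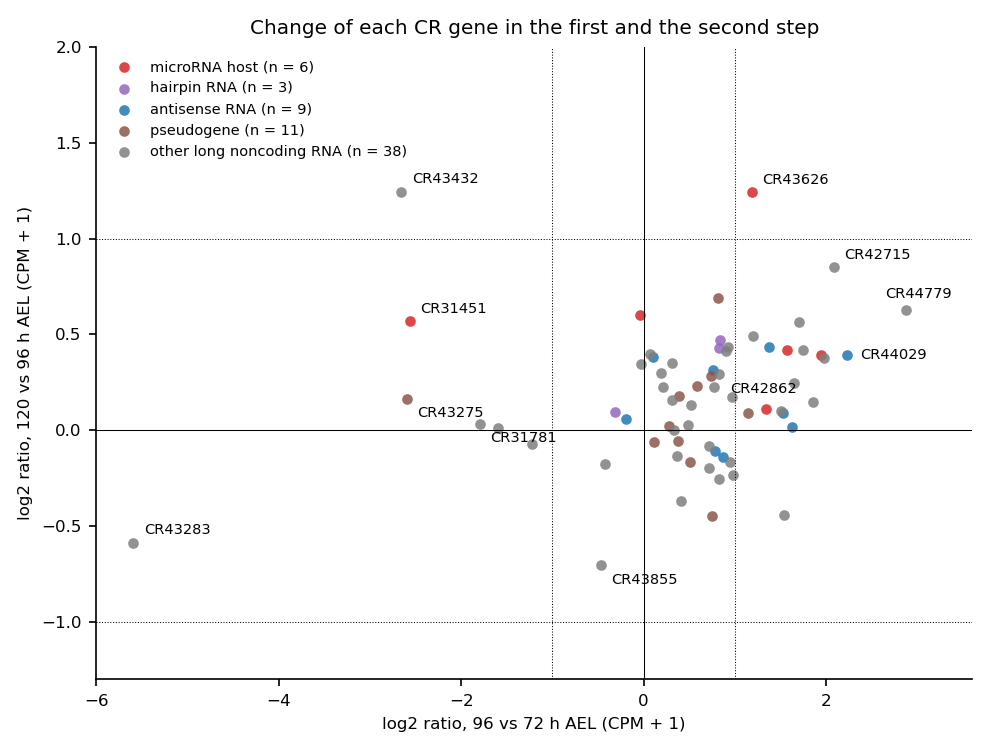
Log2 ratio (CPM + 1) of each member between 72 and 96 h AEL (horizontal axis) and between 96 and 120 h AEL (vertical axis), coloured by RNA class, with dotted lines at 2-fold. The axes share the 96 h library, and 19 members lie beyond the right-hand line, 7 beyond the left-hand line and 2 above the upper one.

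The 11 pseudogenes had the smallest median between 72 and 96 h AEL of any class, 0.51, and 10 of them had a ratio above 0 (90.9%, against 50.7% of all genes tested). They ranged up to 15.5 CPM, the level of CR18217 at 120 h AEL. Overlap with other genes made little difference to the median, since members with an exon overlapping another gene had a median log2 ratio of 0.78 between 72 and 96 h AEL and the 37 without one had 0.72. Of the 37, 12 were 2-fold higher and 5 lower, where 5.2% and 16.2% of all genes tested were. The list thus leaned the same way without the members whose exons overlap another gene in this annotation. Members within an intron, such as CR43855, remain among the 37, so reads of a surrounding gene are not excluded.

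A coding gene overlapped or neighbouring the member was at 3 CPM or more in at least 1 library for 45 members. Across these 45 pairs, whose values come from the same libraries, Spearman's rho of the log2 ratios of member and coding gene was 0.45 for the first step, 0.22 for the second and 0.52 over both. Between 72 and 96 h AEL, 32 of the 45 pairs had ratios of the same sign, and the median coding gene ratio was 0.44, so the coding genes of these pairs also leaned upward. For the 18 pairs in which the member lies between coding genes, rho was 0.75, 0.35 and 0.73. For the 10 pairs with exons on opposite strands it was -0.15, 0.08 and -0.07, for the 10 intronic members 0.26, 0.10 and 0.27, and for the 7 pairs with exons on the same strand 0.54, -0.64 and 0.96. Pairs are not independent replicates, and the groups are small.

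From 72 to 120 h AEL, 20 members and 13 coding genes of the 45 pairs were at least 2-fold higher or lower. Of all genes tested, 7.59% were 2-fold higher and 17.3% lower. Some pairs would coincide from these numbers alone. Both genes of a pair were 2-fold higher in 9 pairs, and these were listed after their values were seen. They were CR44029 with unc-13, CR45102 with Mnt, CR43957 with ci, CR44042 with l(2)41Ab, CR32205 with CG32206, CR43493 with l(1)G0196, CR42715 with Mtkl, CR33963 with Tis11, which promotes decay of mRNAs with AU-rich elements, and CR31824 with Tep1, a thioester protein of the immune response. Tep1, 57 bases from CR31824, was at 1106, 2615 and 2620 CPM beside 0.718, 2.03 and 3.88 CPM for CR31824. CR33963 shares 186 bases of the same strand with Tis11, which was at 133, 314 and 325 CPM beside 1.53, 3.97 and 4.60 CPM for CR33963. The 1 pair that moved 2-fold in opposite directions was CR44779 with CG3655.

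**Figure D5:**
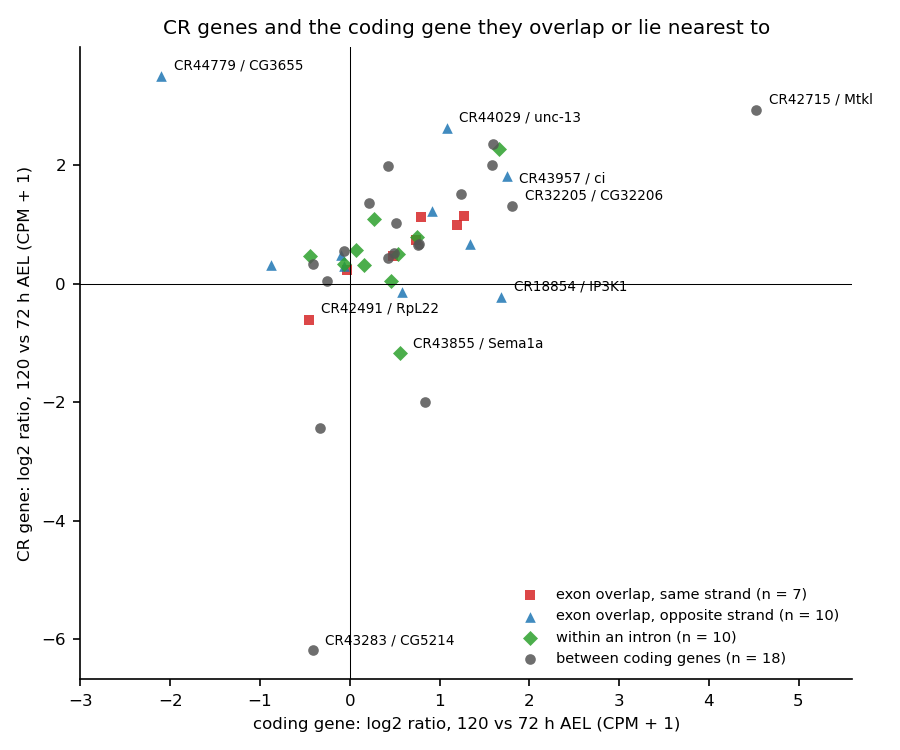
Log2 ratio (CPM + 1) between 72 and 120 h AEL of each member (vertical axis) against that of the coding gene it overlaps or lies nearest to (horizontal axis), for the 45 pairs whose coding gene reached 3 CPM, with a symbol for each position. Pairs with the member between coding genes (rho 0.73, n = 18) and pairs with exons on opposite strands (rho -0.07, n = 10) are shown together, with CR44779 alone at the upper left.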

How the data were processed

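The authors deposited raw counts per gene for each library, as whole numbers without normalization. The submitters' processing notes name FastQC 0.11.8, STAR 2.5.3a, featureCounts 1.6.0 and the build BDGP6. The handling of strand, read pairs and multiply mapped reads is not given in the sources used here. Libraries were grouped by the age in the labels. CPM used the column totals for the member rule, other level thresholds and the age of the highest level. It used totals times TMM factors (1.04, 0.989 and 0.971, edgeR 4.0.16, R 4.3.3) for all else, with Python 3.11.15, pandas 2.3.3, NumPy 2.4.6, SciPy 1.17.1 and Matplotlib 3.10.9. Classes, exons, neighbours and coordinates are from the Ensembl annotation of BDGP6.54, which is the assembly named but not the annotation used for counting. It matched 65 members by identifier and 2 by symbol. Named are the 8 highest members, the 5 largest and 5 smallest log2 ratios per comparison among members of at least 10 CPM, members on the study's signature lists (of which a shortened table was used), 3 genes on each side of the threshold, listed noncoding genes and coding neighbours. Members and lists were chosen with earlier results of these data known. Functions were tested on simulated data. Alternatives were other scalings (DESeq2 1.42.0 size factors among them), pseudocounts, thresholds, member rules, thinned counts and members without exon overlap. A nucleotide sequence of the members was not used here.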

Additional observations from a re-analysis of the deposited data

How the results depend on the processing

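With 1 library per age, no library could be left out and no test was made. No paired analysis was possible because each age has 1 library. Total-count scaling, DESeq2 size factors and thinning to the smallest total changed no pattern count and moved each median by under 0.1. The 4-fold counts in 120 vs 72 h AEL became 8 higher and 3 lower under either scaling and 10 higher and 2 lower on thinned counts, and that in 96 vs 72 h AEL became 4 higher on thinned counts. With a pseudocount of 0.1 CPM, 13, 1 and 15 members were 4-fold higher (96 vs 72, 120 vs 96 and 120 vs 72 h AEL), 5 were lower in 120 vs 72 h AEL, 2 were lower then higher, and the 96 vs 72 h AEL median was 0.84. With 5 CPM, 1 and 2 were higher and 1 and 1 lower against 72 h AEL, with medians of 0.38 and 0.41, and 0 members were higher in both steps or lower then higher, as also with 4-fold steps. At 2-fold, 19, 2 and 28 were higher, and 7 and 8 lower against 72 h AEL. A whole interval past 4-fold gave 9 higher in 96 vs 72 and 1 in 120 vs 96 h AEL, and 6 in 96 vs 72 h AEL on halved counts. A rule of 10 CPM (20 members) gave 2 lower in 96 vs 72, 3 higher and 1 lower in 120 vs 72 h AEL, and 0 in either pattern. Over all 1059 CR genes with a count the medians were 0.020, 0 and 0.017. Shares of counts became 0.243%, 0.333% and 0.389% with a rule of 1 CPM, 0.223%, 0.302% and 0.354% with 10 CPM, 0.251%, 0.343% and 0.399% over all CR genes, and 0.247%, 0.347% and 0.401% with a total that omits mitochondrial and rRNA genes. Restricted to members without exon overlap they were 0.0629%, 0.0358% and 0.0335%, in the reverse order of the ages. This leaves out CR42862 and keeps CR43283, at 286, 4.93 and 2.95 CPM. Of those 37 members, 29 had a ratio above 0 between 72 and 96 h AEL (78.4%, against 50.7% of all genes tested). That restriction gave 1 member 4-fold higher in 96 vs 72 h AEL and a rho with coding neighbours of 0.67 and 0.35 in the 2 steps. Of 345 ratios of single named members under another setting, 249 lay within a counting interval and 96 did not. That interval came from unhalved counts without added CPM. Some reported ratios, such as that of CR42715 in 96 vs 72 h AEL, lie outside it themselves. The split therefore does not measure how far the ratios moved. Another sign was found for 2 ratios, both of CR18217 in 120 vs 96 h AEL, where the ratio was 0.02. Counts of members called 4-fold therefore depend on the pseudocount.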

Other observations

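Noncoding genes outside the rule also had values. Of the named noncoding RNA genes, roX1 was at 330, 552 and 575 CPM, and Hsromega, a heat shock RNA of nuclear speckles, was at 56.9, 82.9 and 93.0 CPM. The snoRNA host genes Uhg1 (20.2, 22.4 and 18.1 CPM), Uhg2 (28.0, 22.1 and 19.6 CPM) and Uhg5 (39.9, 41.2 and 37.7 CPM) were not 2-fold apart between any of the libraries. A gene with a peak at 96 h AEL was pncr002:3R, with 48, 744 and 30 counts (0.931, 19.8 and 0.902 CPM), a course that no member showed at 2-fold in both steps. The RNAs snRNA:7SK, with 18, 12 and 22 counts, and 7SLRNA:CR32864, with 4, 0 and 0 counts, were near absence, and the way RNA was selected is not given in the sources used here. Among CR genes on the study's signature lists that did not reach 3 CPM, CR43051 came closest, at 0.737, 1.49 and 2.83 CPM, and CR44430, on the PSC and GST-rich lists, had 0 counts in all 3 libraries, which allows up to 0.0606, 0.0791 and 0.0875 CPM before scaling.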
